A study of Mus musculus with 6 samples.

Results

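The proteasome genes were taken as all genes whose single symbol in the platform annotation begins with Psma, Psmb, Psmc, Psmd, Psme, Psmf or Psmg, which gave 50 genes of 19938 measured. They were followed in natural killer (NK) cells sorted from mouse spleen as YFP+, CD27+, NK1.1+ and CD3-, with 1 Affymetrix array per sample. One group of 3 arrays carried the genotype labelled 15a/16-1FKO (the knockout) and the other group of 3 arrays was labelled Ctrl. The mice of both groups were C57Bl/6, 8 to 12 weeks old and not treated with any agent named in the labels, and cells were sorted directly after the spleen was taken. Per the series' design, the 3 arrays within a group are technical replicates, and every p-value therefore reflects array-to-array spread, which may be purely technical. What the YFP marks, which promoter drives the deletion and how many mice were used are not given in the sources used here.

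The proteasome is the protease complex that degrades ubiquitin-tagged proteins in the cytosol and nucleus. Its 20S core is a barrel of alpha subunits (Psma genes), which gate the entrance, and beta subunits (Psmb genes), of which Psmb5, Psmb6 and Psmb7 carry the standard active sites. The 19S cap recognises, unfolds and feeds in the substrate with a ring of ATPases (Psmc genes) and non-ATPase subunits (Psmd genes). In lymphocytes and in cells exposed to interferon-gamma, Psmb8, Psmb9 and Psmb10 replace Psmb5, Psmb6 and Psmb7, and the PA28 activator of Psme1 and Psme2 can take the place of the 19S cap. This immunoproteasome is known for making peptides that are loaded on MHC class I molecules.

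The microRNAs of the deleted locus share their seed, the stretch that pairs with target transcripts. Both are printed from RefSeq (GRCm38.p6) with the seed, bases 2 to 8, in capitals, as the mature products of the locus named in the genotype.
mmu-miR-15a-5p: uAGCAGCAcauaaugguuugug
mmu-miR-16-5p: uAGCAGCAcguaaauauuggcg
The precursor gene Mir15a was lower in the knockout, with log2 levels of 4.37, 3.53 and 3.43 in the knockout arrays and 7.14, 6.02 and 6.69 in the Ctrl arrays (limma adjusted p = 0.0296). The probe set of Mir16-1 lay under background in all arrays, at a mean of 3.08. Its levels were 2.61, 2.68 and 3.00 in the knockout and 3.19, 3.20 and 3.77 in Ctrl (limma adjusted p = 0.999). These did not overlap, as in 8.33% of all genes. Mir15a was 1 of 4 genes past the threshold among 19938, all on the chromosome of the deleted locus. The 7 NK markers had mean log2 levels between 10.31 and 10.50 in the 6 arrays. Of the markers of other cells, 2 of 4 for B cells, 3 of 5 for T cells, 3 of 9 for macrophages, monocytes and dendritic cells, 4 of 5 for neutrophils and 1 of 1 for erythroid cells had a mean over the 6 arrays above 4.13, the level under which 95% of 1027 olfactory receptor genes lay. That level stood in for background here. The T cell markers above it were Cd3d, Cd3e and Cd3g, at 5.63 to 7.79, in cells sorted as CD3-.

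No proteasome gene passed the threshold between genotypes, in either direction. Over all genes 0.0201% were called, 0.015% as higher and 0.00502% as lower (limma, Benjamini-Hochberg adjusted p under 0.05 over 19938 genes). Every one of the 50 genes had an adjusted p of 0.999, and 1 of 50 had an unadjusted p under 0.05 in limma (Psmd7, higher), beside 3.47% of all genes, 1.55% as higher and 1.91% as lower. All arrays of one genotype lay above all of the other in 3 of 50 genes, beside 8.33% of all genes. Of these, 1 was higher in the knockout, beside 3.68% of all genes, and 2 were lower, beside 4.65%. A negative difference, knockout minus Ctrl, was found in 33 of 50 genes, beside 52.1% of all genes. The median of the 50 log2 differences was -0.09, and that of all genes was -0.01. The 95% intervals of all 50 differences lay within -0.92 and 0.87, and 15 of the 50 lay within -0.5 and 0.5. A difference of 1 on the log2 scale was outside each interval. These intervals hold array-to-array spread only, and may leave out spread between mice. In such bulk samples, fewer cells of a type and less RNA per cell cannot be told apart.

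**Figure D1:**
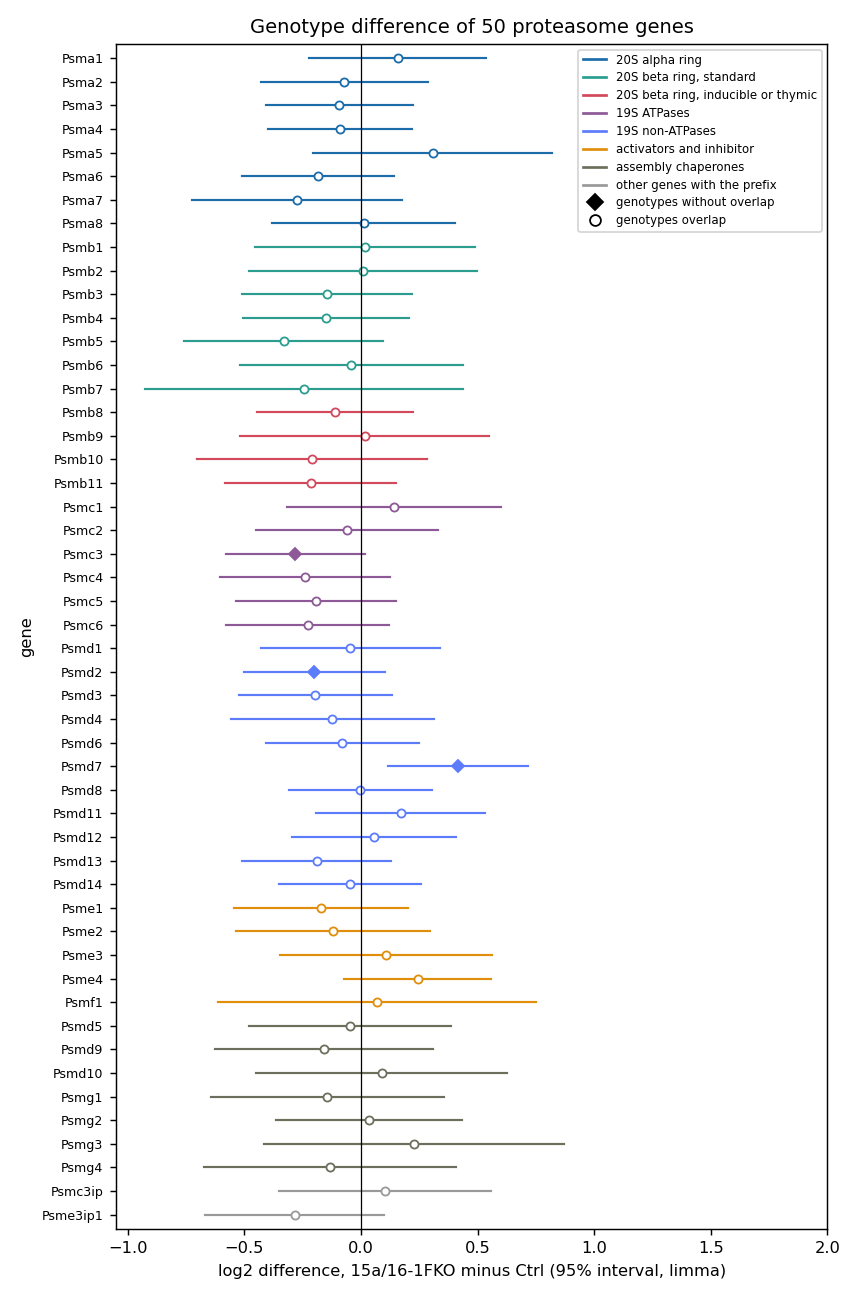
Log2 difference of each of the 50 proteasome genes, 15a/16-1FKO minus Ctrl (x axis, with 95% intervals from limma, n = 3 arrays each), by subcomplex (colour). Filled diamonds are genes whose genotypes did not overlap, which were Psmc3, Psmd2 and Psmd7, and open circles are genes whose genotypes overlapped. The intervals of all genes but Psmd7 cross 0, and no gene passed the threshold over all genes.

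The proteasome genes varied together among the Ctrl arrays. The genotype difference was smaller than the range of the 3 Ctrl arrays in 47 of 50 genes, with Psme4, Psmc3 and Psmd7 as the exceptions, and in 86.6% of all genes. Ctrl replicate 2 was the highest of the 6 arrays in 26 of 50 genes, beside 15.8% of all genes, and Ctrl replicate 1 was the lowest in 19 of 50, beside 13.4% of all genes. Ctrl replicate 2 lay above Ctrl replicate 1 in 45 of 50 proteasome genes, with a median gap of 0.37 on the log2 scale, while over all genes 45.8% had that order and the median gap was -0.03. Among the 8912 genes whose mean lay anywhere between the lowest and the highest of the 48 proteasome genes above background, a set with a lower average level than theirs, 56.8% had that order and the median gap was 0.06. The mean deviation of the 50 genes from their own means was -0.16 in Ctrl replicate 1, 0.25 in Ctrl replicate 2 and -0.0030 in Ctrl replicate 3. In the knockout arrays it was -0.05, 0.01 and -0.04, so that all knockout arrays lay between the lowest and the highest Ctrl array. The SD of the Ctrl arrays exceeded that of the knockout arrays in 35 of 50 genes, beside 46.8% of all genes.

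**Figure D2:**
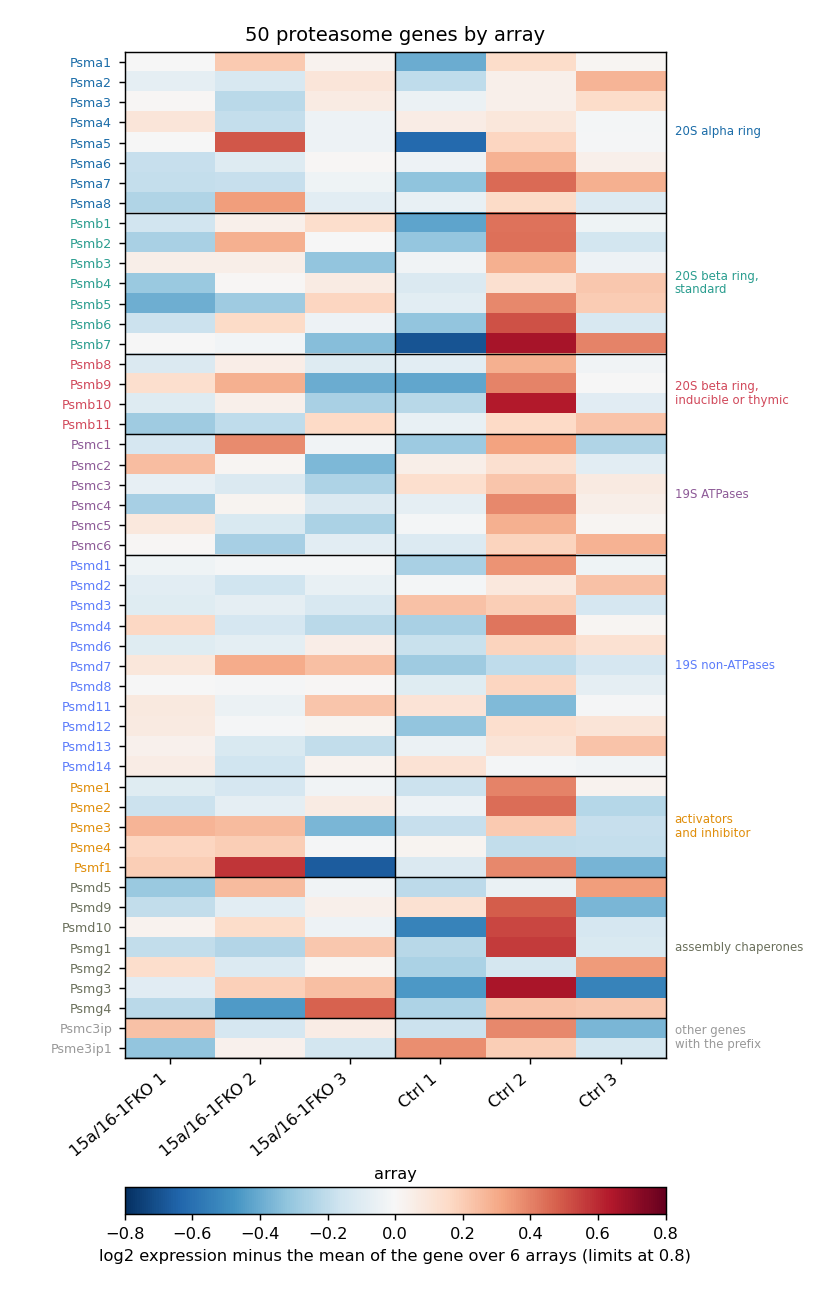
Log2 expression of the 50 proteasome genes (rows, grouped by subcomplex) in the 6 arrays (columns), each as its deviation from the mean of that gene over the 6 arrays. Red is above and blue below the mean, with the colour limits at 0.8. The column of Ctrl replicate 2 is mostly red, with the highest value in 26 of 50 genes, and that of Ctrl replicate 1 mostly blue, with the lowest value in 19 of 50.

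The sign of the proteasome genes' median genotype difference depended on Ctrl replicate 2, and its size on Ctrl replicates 1 and 2. Without Ctrl replicate 2, 24 of 50 genes had a negative difference and the median was 0.01. Without Ctrl replicate 1, 41 of 50 did and the median was -0.18. Leaving out any other array gave between 33 and 36 negative differences. The gap also appeared in other genes. Of 32 NADH dehydrogenase subunits, chosen after the pattern was seen, 30 were higher in Ctrl replicate 2 than in Ctrl replicate 1 (median gap 0.35), as were 37 of 57 ribosomal protein genes (median gap 0.11). The mean level of the NK markers was 10.31 in Ctrl replicate 1 and 10.38 in Ctrl replicate 2. Single NK markers moved in both directions, with 4 of 7 higher in Ctrl replicate 2 (median gap 0.03). Prf1 was at 9.06 in Ctrl replicate 1 and 9.67 in Ctrl replicate 2, and Eomes at 9.89 and 9.57. The 9 macrophage, monocyte and dendritic cell markers averaged 4.35, 4.42 and 4.42 in the Ctrl arrays and 4.23, 4.31 and 4.38 in the knockout arrays. Only 3 of the 9, Lyz2, Itgax and Cd74, had a mean above background, with Itgax at 8.91 to 9.44. The NK marker Prf1 was at 9.06 to 9.67, and which cells gave the Itgax signal was not tested. Of these 9 markers, the same 3 were higher in Ctrl replicate 2 than in Ctrl replicate 1. The median gap of the 9 was -0.07. Lyz2, 1 of the 3, was at 5.83 in Ctrl replicate 2 and at 4.75 to 5.12 in the other arrays. The neutrophil markers averaged 5.19, 5.64 and 4.91 in the Ctrl arrays and 6.27, 4.99 and 5.55 in the knockout arrays, and all 5 of them were higher in Ctrl replicate 2 than in Ctrl replicate 1. Of the T cell markers 1 of 5 had that order (median gap -0.23), and of the B cell markers 2 of 4 (median gap -0.17). The 1 erythroid marker had that order with a gap of 0.01. The part of any of these cells in the pattern was not tested.

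**Figure D3:**
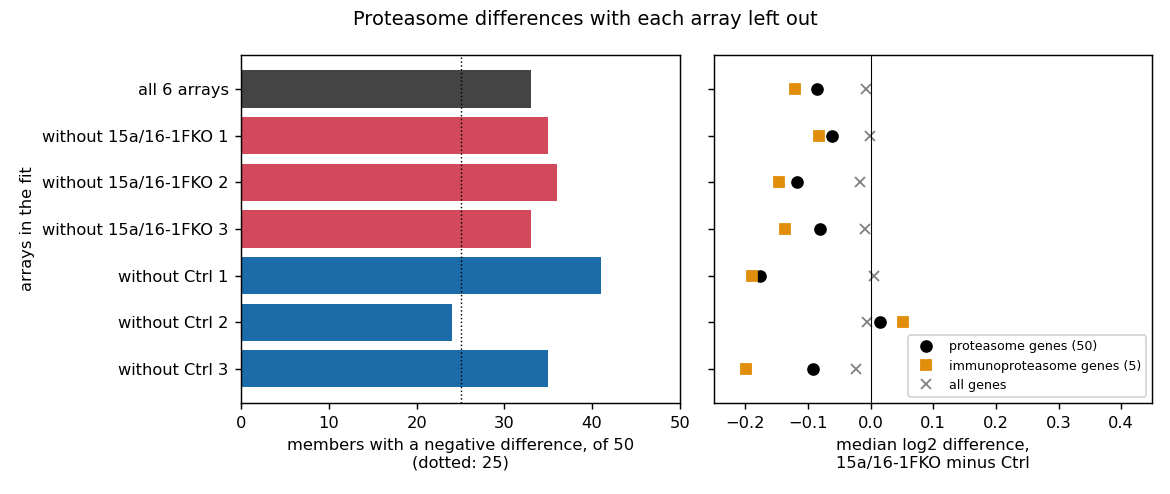
Left, number of the 50 proteasome genes with a negative log2 difference (15a/16-1FKO minus Ctrl) with all 6 arrays and with each array left out; the dotted line marks 25. Right, the median log2 difference of the 50 proteasome genes, of the 5 immunoproteasome genes and of all genes in the same fits; without Ctrl replicate 2 the number was 24 and both proteasome medians were above 0.

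The inducible catalytic subunits did not differ between genotypes beyond the spread of the arrays. Psmb8, which replaces Psmb5, had log2 levels of 8.04, 8.21 and 8.05 in the knockout arrays and 8.07, 8.44 and 8.13 in the Ctrl arrays. The genotypes overlapped, with a log2 difference of -0.11 (95% interval -0.45 to 0.22, limma adjusted p = 0.999). Psmb9, which replaces Psmb6, had levels of 9.99, 10.14 and 9.46 in the knockout and 9.44, 10.25 and 9.85 in Ctrl. Its lowest and highest values both lay in the Ctrl group, and its difference was 0.01 (95% interval -0.52 to 0.55). Psmb10, which replaces Psmb7, had levels of 8.05, 8.20 and 7.90 in the knockout and 7.93, 8.79 and 8.06 in Ctrl. Ctrl replicate 2 alone stood above the other arrays, by more than the knockout arrays differed among themselves. The difference of Psmb10 was -0.21 (95% interval -0.71 to 0.28), and 0.05 without Ctrl replicate 2.

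The PA28 activator subunits were also highest in Ctrl replicate 2, while the lowest Ctrl array was replicate 1 for Psme1 and replicate 3 for Psme2. Psme1, the alpha subunit, had log2 levels of 9.27, 9.23 and 9.34 in the knockout and 9.19, 9.76 and 9.39 in Ctrl, with a difference of -0.17 (95% interval -0.54 to 0.20). Psme2, the beta subunit, had levels of 7.57, 7.66 and 7.80 in the knockout and 7.70, 8.19 and 7.51 in Ctrl, with a difference of -0.12 (95% interval -0.54 to 0.30). In both, Ctrl replicate 2 was the highest of the 6 arrays and the genotypes overlapped. Without it the differences were -0.01 for Psme1 and 0.07 for Psme2. A further probe set, annotated to both Psme2 and Psme2b, was left out. The difference was negative in 4 of the 5 immunoproteasome genes. Its median was -0.12, beside -0.01 for all genes, and without Ctrl replicate 2 their median was 0.05. All 5 were highest in Ctrl replicate 2.

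The standard catalytic subunits were highest in Ctrl replicate 2 as well. Psmb5, the chymotrypsin-like site, had log2 levels of 8.19, 8.30 and 8.76 in the knockout and 8.50, 8.97 and 8.79 in Ctrl. Its difference of -0.33 (95% interval -0.76 to 0.09, limma adjusted p = 0.999) was the lowest of the 50 genes, yet knockout replicate 3 lay above Ctrl replicate 1. Psmb6, the caspase-like site, had levels of 8.70, 9.02 and 8.82 in the knockout and 8.55, 9.38 and 8.74 in Ctrl, with a difference of -0.04 (95% interval -0.52 to 0.44). Psmb7, the trypsin-like site, had levels of 7.48, 7.46 and 7.15 in the knockout and 6.79, 8.15 and 7.88 in Ctrl. The 3 Ctrl arrays of Psmb7 thus spanned 1.35 on the log2 scale around the knockout values, and its difference was -0.24 (95% interval -0.92 to 0.44). Psmb7 had the widest gap between Ctrl replicates 1 and 2 among the probe sets used for the 50 genes. Its difference was -0.65 without Ctrl replicate 1 and 0.03 without Ctrl replicate 2, and no fit called it.

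**Figure D4:**
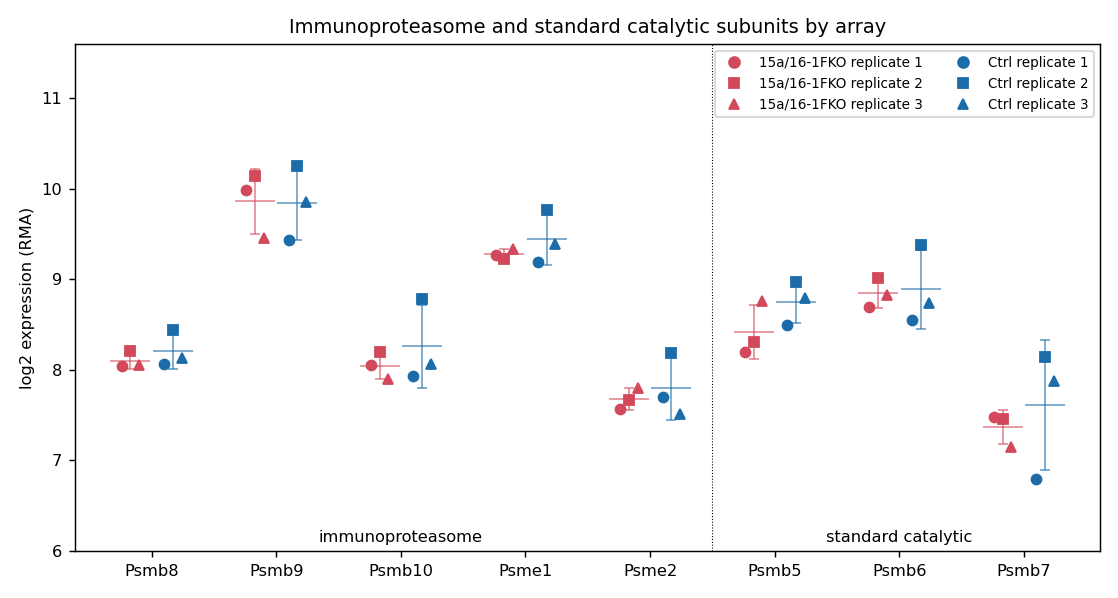
Log2 expression of the 5 immunoproteasome genes (left of the dotted line) and the 3 standard catalytic subunits (right) in each array. Points are arrays (circle, replicate 1; square, replicate 2; triangle, replicate 3), and the lines are the mean and SD of 3 arrays, red for 15a/16-1FKO and blue for Ctrl. The blue square, Ctrl replicate 2, is the highest point of all 8 genes, and the genotypes overlap in each.

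The exchange of standard for inducible subunits was followed as the log2 difference within each pair, of which only the change between genotypes can be read. Psmb8 minus Psmb5 was -0.16, -0.10 and -0.71 in the knockout arrays and -0.43, -0.53 and -0.66 in the Ctrl arrays, a change of 0.22 with overlapping genotypes. Psmb9 minus Psmb6 changed by 0.06, from 0.96 ± 0.14 in Ctrl to 1.01 ± 0.34 in the knockout (mean ± SD, n = 3 arrays each). Psmb10 minus Psmb7 changed by 0.03, from 0.65 ± 0.48 to 0.68 ± 0.10. All 3 changes were smaller than the larger SD of their pair. With each array left out in turn, the change lay between 0.11 and 0.41 for Psmb8 minus Psmb5, between -0.08 and 0.25 for Psmb9 minus Psmb6 and between -0.21 and 0.27 for Psmb10 minus Psmb7. The signs for Psmb9 minus Psmb6 and for Psmb10 minus Psmb7 thus depended on single arrays.

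The DNA just before the start sites is shown for Psmb8 with Psmb5 and Psmb9 with Psmb6, the pairs in which both genes had a window, because all 4 genes were highest in Ctrl replicate 2. Each window is the 250 bases before the RefSeq start (GRCm38.p6), 5′ to 3′ on the gene's strand, with motif matches in capitals. The search covered TTCNNNGAA (the gamma-activated site, GAS, bound by STAT factors), a core of the interferon-stimulated response element, TGACNNNGC (a core of the antioxidant response element, ARE, through which NFE2L1 is known to act on proteasome genes) and CCAAT, on both strands.
Psmb8, chr17:34197945-34198194, plus strand: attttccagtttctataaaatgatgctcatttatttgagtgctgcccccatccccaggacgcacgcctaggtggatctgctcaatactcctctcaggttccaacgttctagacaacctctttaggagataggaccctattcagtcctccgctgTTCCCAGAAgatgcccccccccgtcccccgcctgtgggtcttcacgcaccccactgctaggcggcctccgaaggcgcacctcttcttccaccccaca
Psmb5, chr14:54617996-54618245, minus strand: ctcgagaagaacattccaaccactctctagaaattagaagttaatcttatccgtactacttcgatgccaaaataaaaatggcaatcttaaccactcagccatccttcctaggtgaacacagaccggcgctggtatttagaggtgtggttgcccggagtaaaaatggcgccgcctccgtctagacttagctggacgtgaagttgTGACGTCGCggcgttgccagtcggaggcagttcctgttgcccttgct
Psmb9, chr17:34187331-34187580, minus strand: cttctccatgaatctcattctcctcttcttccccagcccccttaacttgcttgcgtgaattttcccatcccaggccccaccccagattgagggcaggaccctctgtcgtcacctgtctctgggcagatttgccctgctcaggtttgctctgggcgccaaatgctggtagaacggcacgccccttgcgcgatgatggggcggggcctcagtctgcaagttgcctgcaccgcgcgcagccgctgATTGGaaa
Psmb6, chr11:70525107-70525356, plus strand: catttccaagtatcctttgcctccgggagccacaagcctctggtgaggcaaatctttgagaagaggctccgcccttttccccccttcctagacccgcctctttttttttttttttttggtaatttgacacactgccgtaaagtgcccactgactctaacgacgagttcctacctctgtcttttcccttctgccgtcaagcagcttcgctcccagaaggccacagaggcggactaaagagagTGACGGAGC

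The standard subunits Psmb5 and Psmb6 each held the ARE core, 47 and 9 bases before the start at its first base. Psmb8 held a GAS motif, 97 bases before the start, and Psmb9 a CCAAT box on the opposite strand, 8 bases before it. Windows were at hand for 42 of the 50 proteasome genes and for 27025 genes in all. The ARE core was found in 5 of the 42 (Psmb5, Psmb6, Psmc6, Psmd12 and Psmd9), beside 11.5% of all genes, and CCAAT in 16 of 42, beside 37.5%. The GAS motif was found in 2 of 42 (Psmb8 and Psmg1), beside 8.13% of all genes, and the interferon core in 3 of 42 (Psmb3, Psmd4 and Psmd9), beside 3.46%. A match describes these letters only. The window of Psmb9 overlaps that of Tap1, the peptide transporter gene on the other strand, by 275 of 300 bases, when each window is taken as in the RefSeq table, from 250 bases before the start to 50 bases after it. Tap1 had log2 levels of 7.61, 7.42 and 7.14 in the knockout and 7.39, 7.54 and 7.12 in Ctrl, with a difference of 0.04 (SE 0.17).

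Of the remaining beta genes, Psmb1, Psmb2, Psmb3 and Psmb4, which complete the ring without standard active sites, had differences between -0.15 and 0.02. All 7 standard beta genes were higher in Ctrl replicate 2 than in Ctrl replicate 1, with a median gap of 0.75 and a range of 0.24 to 1.35, and 6 of the 7 were highest in Ctrl replicate 2. The exception was Psmb4, highest in Ctrl replicate 3 at 9.45. Psmb11, which encodes the beta5 subunit of the thymic cortex, lay at a mean of 4.04, under the olfactory receptor level. Psma8, the alpha subunit of male germ cells, was the other proteasome gene under that level, at 2.61, and the remaining 48 lay above it.

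The alpha ring showed 5 negative and 3 positive differences among 8 genes, with a median of -0.08. Psma7 had log2 levels of 8.75, 8.76 and 8.91 in the knockout and 8.62, 9.40 and 9.23 in Ctrl. Ctrl replicate 1 lay under every knockout array and the other Ctrl arrays above, and the difference was -0.28 (SE 0.20), with -0.51 without Ctrl replicate 1 and -0.12 without Ctrl replicate 2. Psma5 differed by 0.31 (SE 0.23), the largest positive value in the ring, with 7.86 in Ctrl replicate 1 beside 8.45 to 8.98 in the other arrays. Without that array the difference of Psma5 was 0.07. Psma6 differed by -0.18 (SE 0.14), and by -0.09 without Ctrl replicate 2. All 8 alpha genes were higher in Ctrl replicate 2 than in Ctrl replicate 1.

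The ATPase ring had mostly negative differences, with 5 of 6 negative and a median of -0.21, and none passed. Psmc3 had log2 levels of 6.98, 6.93 and 6.80 in the knockout and 7.18, 7.27 and 7.11 in Ctrl. It was 1 of 3 proteasome genes without overlap, with a difference of -0.28 (95% interval -0.58 to 0.02, limma adjusted p = 0.999). Psmc4 differed by -0.24 (SE 0.16), Psmc6 by -0.23 (SE 0.16) and Psmc5 by -0.19 (SE 0.15), each with overlapping genotypes. The difference of Psmc4 was -0.11 without Ctrl replicate 2. Psmc1 was the exception, at 0.14 (SE 0.21). The ATPases had a median gap between Ctrl replicates 2 and 1 of 0.29, with a range of 0.08 to 0.61, beside 0.75 in the standard beta genes; the difference between the rings was not tested.

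Psmd7, a scaffold partner of the deubiquitinase subunit Psmd14 in the 19S lid, had the highest difference of the 50 genes. Its log2 levels were 6.79, 6.99 and 6.94 in the knockout and 6.41, 6.49 and 6.56 in Ctrl. All knockout arrays lay above all Ctrl arrays, with a difference of 0.42 (95% interval 0.12 to 0.72, limma unadjusted p = 0.0116, adjusted p = 0.999). Psmd7 was the only 1 of the 50 genes with an unadjusted p under 0.05 in limma, beside 3.47% of all genes. With each array left out in turn the difference of Psmd7 lay between 0.37 and 0.48. Its genotypes did not overlap, so that leaving out 1 array could not reverse the sign. Psmd14 itself differed by -0.05 (SE 0.14). Psmd2, a scaffold subunit at the base of the cap, had levels of 7.35, 7.27 and 7.37 in the knockout and 7.42, 7.52 and 7.67 in Ctrl. Its genotypes did not overlap either, with a difference of -0.20 (SE 0.13), while a second probe set of Psmd2 differed by -0.06 (SE 0.14). Psmd3 differed by -0.20 (SE 0.15), with Ctrl replicate 3 at 6.13 as the lowest array and the knockout at 6.14 to 6.20. Among the 11 non-ATPase genes, 8 differences were negative, and their median was -0.05. Psmd8 had the smallest difference in size of the 11, at -0.0038 (SE 0.14). Its levels were 8.31, 8.31 and 8.33 in the knockout and 8.22, 8.49 and 8.25 in Ctrl.

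The other activators had positive differences, and none passed. Psme4 (PA200), a nuclear activator, had log2 levels of 7.04, 7.07 and 6.86 in the knockout and 6.90, 6.67 and 6.68 in Ctrl, overlapping in 1 pair of arrays, with a difference of 0.24 (95% interval -0.07 to 0.56). Psme3 (PA28 gamma) differed by 0.11 (SE 0.20). Psmf1 (PI31), first described as an inhibitor of the core, ranged from 5.46 to 6.71 within the knockout alone, and its difference was 0.07 (SE 0.30). The dedicated assembly chaperones, which place the rings and the ATPases in order, had 4 negative and 3 positive differences among 7 genes, with a median of -0.05. Psmg3 had levels of 5.35, 5.63 and 5.68 in the knockout and 4.98, 6.09 and 4.90 in Ctrl. Its difference of 0.23 (SE 0.29) became 0.61 without Ctrl replicate 2, 0.05 without Ctrl replicate 1 and 0.02 without Ctrl replicate 3. Psmd9 differed by -0.16 (SE 0.21) and Psmg1 by -0.15 (SE 0.22), and both were positive without Ctrl replicate 2, at 0.05 and 0.10. Psmd5, Psmd10, Psmg2 and Psmg4 had differences between -0.13 and 0.09. The symbol rule also took in Psmc3ip, a meiotic recombination factor, at 0.10 (SE 0.20), and Psme3ip1, a partner of PA28 gamma, at -0.28 (SE 0.17), which are not subunits.

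For 5 of the 50 proteasome genes more than 1 probe set carried the symbol. Proteasome genes have processed copies elsewhere in the genome, so that probes may be shared. The probe sets differed in sign only for Psmb3. The brighter Psmb3 probe set differed by -0.15 (SE 0.16), and the other by 0.50 (SE 0.41), with log2 levels of 8.75, 9.35 and 8.09 in the knockout and 7.62, 9.13 and 7.93 in Ctrl. In that second probe set the arrays numbered 2 were the highest of both genotypes. The 3 probe sets of Psma3 gave differences between -0.10 and -0.09, those of Psma5 0.31 and 0.33, and those of Psmc1 0.14 and 0.22. Which of these reads the gene's own locus is not given in the annotation used here. For Psmb3, the number of the probe set used falls near that of the Psmd2 set used, a gene on chromosome 16. The number of the other falls near that of Psmd3 on chromosome 11, where Psmb3 also lies. For Psma5, the number of the probe set used falls near that of Myb, a gene on chromosome 10. The number of the other Psma5 set falls near that of Ubqln4 on chromosome 3, where Psma5 also lies. Whether the Psmb3 and Psma5 sets used read copies was not tested.

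The chromosome of the deleted locus carried 6 proteasome genes, Psmb5, Psmb11, Psmc6, Psmd6, Psme1 and Psme2. All 6 had a negative difference with all arrays, beside 33 of all 50 proteasome genes and 52.1% of all genes. Without Ctrl replicate 2, Psme2 was at 0.07, and Psme1 and Psmd6 were both at -0.01. With all arrays they ranged from -0.33 for Psmb5 to -0.08 for Psmd6, a cap subunit. They lay between 84 and 440 measured genes from Mir15a in gene order, all on the opposite side from the 3 genes that rose in the knockout (Gfra2, Mtmr9 and Rcbtb2, at 19 to 107 genes). None of the 6 passed the threshold, Psmb5 and Psmb11 are neighbours, and Psmb11 lay under background.

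Genes that work beside the proteasome did not pass either. Over all genes 0.0201% were called and 3.47% had an unadjusted p under 0.05 (limma). At such shares, lists of 12 to 16 genes would often hold 0. Of 16 measured partners and regulators, 10 differences were positive and 6 negative, with a median of 0.02; limma called 0 of them, and 0 had an unadjusted p under 0.05. Pomp, the chaperone that matures the core, differed by -0.19 (SE 0.14), the deubiquitinase Uchl5 by 0.18 (SE 0.15) and the cap-bound thioredoxin Txnl1 by 0.13 (SE 0.13). Nfe2l1, the factor that induces proteasome genes when degradation is impaired, differed by -0.03 (SE 0.13). Of these partners 7 of 16 were higher in Ctrl replicate 2 than in Ctrl replicate 1, beside 45 of 50 proteasome genes; that difference was not tested. Of 12 genes of class I peptide loading, 4 differences were positive and 8 negative, with a median of -0.05; limma called 0, and 0 had an unadjusted p under 0.05. Irf1, an interferon-induced activator of Psmb9 and Tap1, had log2 levels of 7.75, 7.75 and 7.53 in the knockout and 7.82, 8.25 and 7.79 in Ctrl. Irf1 was the only 1 of these 12 genes without overlap between genotypes, beside 8.33% of all genes. Its difference was -0.28 (SE 0.17), and -0.13 without Ctrl replicate 2. The class I loading chaperone Tapbp differed by -0.23 (SE 0.15), and the class I transactivator Nlrc5 by -0.24 (SE 0.21). Without knockout replicate 3 these were -0.13 and -0.07, and over all fits with 1 array left out they reached -0.33 and -0.41. Nlrc5 had 19 probe sets and Irf1 2, and the brightest of each was used. With the dimmest set, the difference was -0.20 for each of Nlrc5 and Irf1. Of 12 genes of ubiquitin conjugation and extraction, 7 differences were positive and 5 negative, with a median of 0.05; limma called 0, and 0 had an unadjusted p under 0.05. The conjugating enzyme Ube2k differed by -0.21 (SE 0.15), the cofactor Ubxn1 by -0.26 (SE 0.19) and the unfoldase Vcp by 0.17 (SE 0.14). The difference of Ube2k was -0.12 without knockout replicate 3, that of Ubxn1 -0.04 without Ctrl replicate 2, and that of Vcp 0.11 without Ctrl replicate 3.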

How the data were processed

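The values, as deposited by the authors, were on the log2 scale, for 35556 probe sets on 6 arrays. RMA and Partek 6.6 appear in the submitters' processing notes, with no role stated. RMA corrects background, quantile-normalizes and combines probes, which compresses differences of dim probe sets. For the build, the sources used here give nothing. Of the probe sets, 21789 had 1 symbol in GEO's platform annotation, and the one with the highest mean over the 6 arrays stood for each of 19938 genes, with no filter on low values. All 50 proteasome genes matched the GRCm38.p6 gene table, from which only chromosome and gene order were used. Genotypes were compared with limma 3.58.1 under R 4.3.3 (a two-sided moderated test with genotype as the only term), with Benjamini-Hochberg adjustment over all genes and a threshold of 0.05. The script was tested on simulated data. Precision is limited by the number of arrays.

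The members and the lists were chosen with earlier results of these data known. Named genes were the immunoproteasome and standard catalytic genes, the 3 smallest p-values of each subcomplex and pathway list, genes without overlap between genotypes, genes whose probe sets differed in sign, and those on the chromosome of the deleted locus; further members, Tap1 and Nfe2l1 were added with their values already known. The olfactory receptor level and the NADH dehydrogenase and ribosomal lists were also chosen after seeing the data.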

Additional observations from a re-analysis of the deposited data

How the results depend on the processing

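No proteasome gene and no gene of the pathway lists passed the threshold under any alternative tried, which were a second quantile normalization, arrays centred on their medians, only genes of at least median brightness, the replicate block, a trended and robust prior, the dimmest probe set of each gene, every probe set with 1 symbol, and each array left out. The lowest adjusted p of a named gene in these fits was 0.991 (limma). The 36 named single-gene differences kept their sign in 454 of 467 values and reversed in 13. With the dimmest probe set, Psmb3 reversed to 0.50. Over the fits that left out 1 array, the calls over all genes ranged from 2 to 3 (4 with all arrays). The differences ranged from -0.18 to 0.0021 for Psmb8, -0.19 to 0.22 for Psmb9, -0.38 to 0.051 for Psmb10, -0.27 to 0.074 for Psme2, -0.21 to 0.20 for Psmb6, -0.65 to 0.027 for Psmb7, -0.38 to 0.046 for Psmd9, -0.29 to 0.10 for Psmg1 and -0.053 to 0.32 for Psmc3ip. Of the 12 reversals in these fits, 7 came without Ctrl replicate 2. The number of genes higher in Ctrl replicate 2 than in Ctrl replicate 1 was 46 with centred arrays and 43 after the second quantile normalization, both tried after seeing the data. Replicate numbers appear in both genotypes, and deviations of same-numbered arrays correlated with r of 0.05, 0.15 and 0.14 over genes, so that the numbers were not taken as pairs, although each array correlated best with its own number. With the replicate block 3 genes were called over all genes and 0 proteasome genes, and the median of the proteasome genes was -0.09. Signal near background limits Psma8 and Psmb11.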
